A study of Mus musculus with 20 samples.

Results

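The cytosolic ribosomal protein genes are the protein-coding genes with an Rpl, Rps, Rplp or Rpsa symbol, pseudogenes left out, and 80 of the 54532 genes in the deposited table met that rule. Of these, 46 encode large-subunit proteins, 31 encode small-subunit proteins and 3 encode the P stalk (Rplp0, Rplp1 and Rplp2). The RNA-seq libraries came from C57BL/6 mice: 2 from undamaged liver, 2 at each of 8 times after 70% partial hepatectomy (PHx; 6, 12, 24, 48 and 72 h, then 7, 14 and 21 d), and 2 from passaged hepatocyte organoids (Hep-Org) grown in Matrigel, a basement membrane gel. No drug, transgene or deletion is named for any group, and age and sex are not given. Hepatocytes were isolated fresh from every liver, per the growth notes, but only the first-submission liver libraries carry a primary hepatocyte label. Replicate 2 of every PHx time, labelled in another format, was taken to be the second submission that the series describes as a supplement, and nothing states whether replicates came from separate animals, so the p-values measure the spread between these libraries.

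Cytosolic ribosomes translate the mRNAs of nuclear genes, and each carries 1 copy of most of these proteins, with the acidic P stalk proteins as the best known exception. Their mRNAs are among the most abundant of a growing cell, and most begin with a C followed by a run of pyrimidines, the terminal oligopyrimidine (TOP) tract, through which mTOR signalling controls their translation. In liver, partial removal makes the remaining hepatocytes grow and divide, and new ribosomes are made during that growth.

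The start regions show what these genes share beyond their names. RefSeq promoter sequences (GRCm38.p6) matched 60 of the 80 members. A pyrimidine run of at least 6 bases touching the stretch from 5 bases before to 5 bases after the annotated start was present in 29 of 60 members (48.3%) and in 21% of all 27025 promoters. A C exactly at the annotated start followed by at least 4 further pyrimidines was present in 12 of 60 members (20%) and in 2.49% of all promoters. Below are 30-base windows of members whose values recur in the results, 5′ to 3′ on the gene's strand, with the annotated start as the base that follows the first 15, and with the run in capitals where there is one.
Rpl12 (chr2:32961697-32961726, plus strand): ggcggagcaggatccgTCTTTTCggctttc
Rpl13a (chr7:45128731-45128760, minus strand): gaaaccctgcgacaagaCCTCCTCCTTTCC
Rpl7a (chr2:26910792-26910821, plus strand): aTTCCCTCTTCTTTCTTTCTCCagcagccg
Rplp2 (chr7:141447636-141447665, plus strand): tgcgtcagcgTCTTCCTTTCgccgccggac
Rps10 (chr17:27635230-27635259, minus strand): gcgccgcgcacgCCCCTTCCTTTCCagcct
Rps27 (chr3:90213634-90213663, minus strand): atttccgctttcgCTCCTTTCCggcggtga
Rps27l (chr9:66946071-66946100, plus strand): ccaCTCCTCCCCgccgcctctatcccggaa
Rplp0 (chr5:115559452-115559481, plus strand): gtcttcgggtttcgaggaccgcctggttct
Rps12 (chr10:23787195-23787224, minus strand): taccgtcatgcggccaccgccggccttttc
Rps4x (chrX:102189377-102189406, minus strand): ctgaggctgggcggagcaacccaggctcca
The paralogues Rps27 and Rps27l both have a run beside the start, but in Rps27l it ends before the annotated start base. In the whole 300-base promoters, searched on both strands, CCGGAAG (an ETS factor motif) was found in 24 of 60 members (40%) and in 9.12% of all promoters. GGGCGG (the SP1 motif) was found in 35 of 60 (58.3%) and in 35.9%, AAGATGGCG (the YY1 motif) in 3 of 60 (5%) and in 1.49%, and TATAAA in 5 of 60 (8.33%) and in 14.2%. These are matches of letters in a window and not sites of binding.

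The members were abundant in every library and took their largest share of the library total in the organoids. Summed over the 80 members, the authors' FPKM (fragments per kilobase of exon, scaled to library size) came to 6152 and 6304 in the 2 undamaged libraries, between 5852 and 12644 over the 16 PHx libraries, and to 19042 and 15339 in the 2 Hep-Org libraries. As a share of each library's FPKM sum, the members made up 1.31% and 0.638% of undamaged liver, 1.11% to 2.82% of the PHx libraries and 10.3% and 9.15% of Hep-Org. Both Hep-Org libraries lay above all 18 liver libraries on either scale. The FPKM sum itself was 326840 to 988800 in liver and 184760 and 167680 in Hep-Org. By group means, the members' FPKM in Hep-Org was 2.76 times that of undamaged liver and their share 9.99 times. The larger ratio of the shares thus also holds the smaller FPKM sum of Hep-Org. With mitochondrially encoded genes taken out of the total, the share was 1.58% and 0.803% in undamaged liver and 11.2% and 9.96% in Hep-Org, with 3.92% as the highest liver value. Within the ribosomal total the subunits kept similar proportions. Small-subunit genes made up 37.5% to 40.1% of the members' FPKM in the liver libraries and 37% and 39.1% in Hep-Org, and the P stalk 10.8% to 16.7% in liver and 14.1% and 13.9% in Hep-Org.

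**Figure D1:**
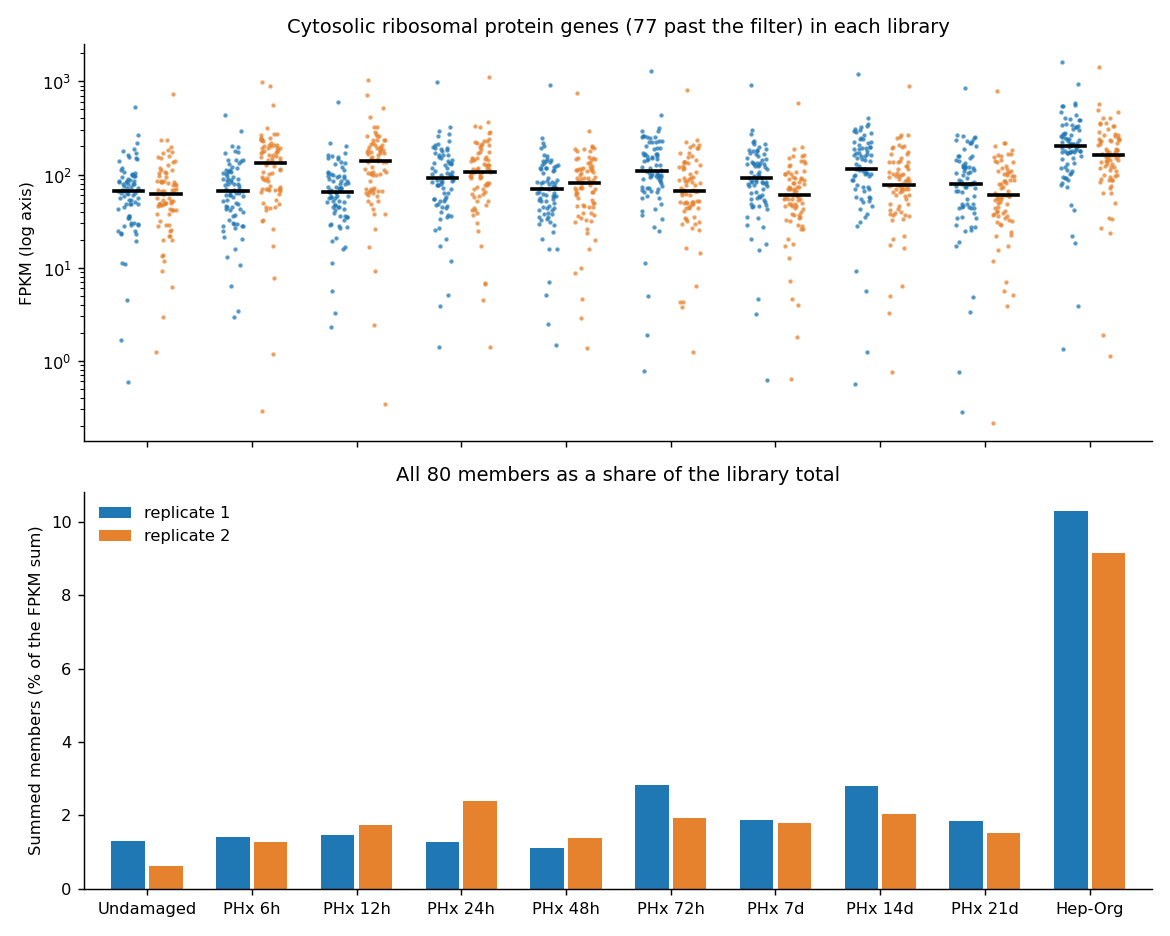
The upper panel shows the FPKM of the 77 members past the filter in each library (log axis; each point is 1 gene, black bars are medians), and the lower panel the sum of all 80 members as a percent of the library's FPKM sum, for replicates 1 (blue) and 2 (orange). The Hep-Org medians of 205 and 161 FPKM lie above the liver medians of 60.3 to 141, and the Hep-Org shares of 10.3% and 9.15% above the highest liver share of 2.82%. The FPKM sum that divides the shares was lower in both Hep-Org libraries than in every liver library.

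Among the members, Rplp1, a P stalk protein that helps to recruit the translation GTPases, had the highest level. Rplp1 was at 533 and 726 FPKM in undamaged liver, had a median of 867 over the 18 liver libraries (435 to 1306), and was at 1615 and 1444 in Hep-Org. Rplp0, the protein that anchors the stalk to the ribosome, and Rpl36, a large-subunit protein, followed in mean share of the library total. Rplp0 had a liver median of 212 FPKM (179 to 363) against 940 and 567 in Hep-Org, whereas Rpl36 had a liver median of 267 (136 to 885) and 554.9 and 473 in Hep-Org, inside the liver range. Of the 80 members, 77 reached 1 FPKM in at least 2 libraries and entered the tests. The other 3 are paralogues known from tissues other than liver: Rpl10l, a testis gene, was listed at 0 in all 20 libraries, Rpl39l, also a testis gene, reached 0.628 FPKM at most and Rpl3l, the striated muscle form of Rpl3, 0.195 at most.

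The lowest tested members were Rps10, Rpl24 and Rpl13a, and the annotation sets them apart. Rps10, a small-subunit protein, ranged from 0.213 to 2.98 FPKM over the 20 libraries, Rpl24, a protein of the bridge between the subunits, from 0.29 to 4.49, and Rpl13a, known outside the ribosome as an inhibitor of translation in inflammation, from 3.33 to 26.4. They are the only 3 of the 80 with over 50% of their coding bases covered on the same strand by exons of another annotated gene: 92.1% of Rps10 by RPS10-NUDT3, 83.4% of Rpl24 by Gm28037 and 97.5% of Rpl13a by Gm45713. All 3 covering genes were listed at 0 in every library. How the authors counted reads that fall in more than 1 gene is not given in the sources used here, so the levels of these 3 genes are uncertain.

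Near-identical copies elsewhere in the genome had values of their own in the table. At least 95% identity over at least 80% of the coding sequence was found for 543 copies of 73 members, 530 of them processed pseudogenes, and 142 copies had a mean of at least 1 FPKM. After a member and its copies were pooled, the member itself held a median of 94.9% of the reads. Only 4 tested members held under 50%: Rps10 (5.58%), Rpl24 (35.7%), Rpl17 (46.3%) and Rpl21 (46.4%). The pseudogene Rps10-ps2 (chromosome 16) had a mean of 94.1 FPKM against 1.31 for Rps10 itself, and their 495 coding bases differ at 5 positions. All 5 lie in coding bases 384 to 473, printed here with the differing bases in capitals because the pair shows how little separates the 2 rows of the table.
Rps10: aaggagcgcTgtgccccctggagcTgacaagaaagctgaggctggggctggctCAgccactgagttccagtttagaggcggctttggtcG
Rps10-ps2: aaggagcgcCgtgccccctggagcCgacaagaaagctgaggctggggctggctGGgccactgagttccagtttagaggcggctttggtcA
Rps12 likewise has an annotated copy, Rps12-ps3, with 100% of its coding bases identical and a mean of 111 FPKM, against 63.7 for Rps12. Which of the copies were transcribed could not be read from this table. FPKM also divides by the length of all annotated exons joined together, which was 1 to 7.18 times the length of the coding mRNA (median 2.06), so that levels are understated unevenly between members.

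**Figure D2:**
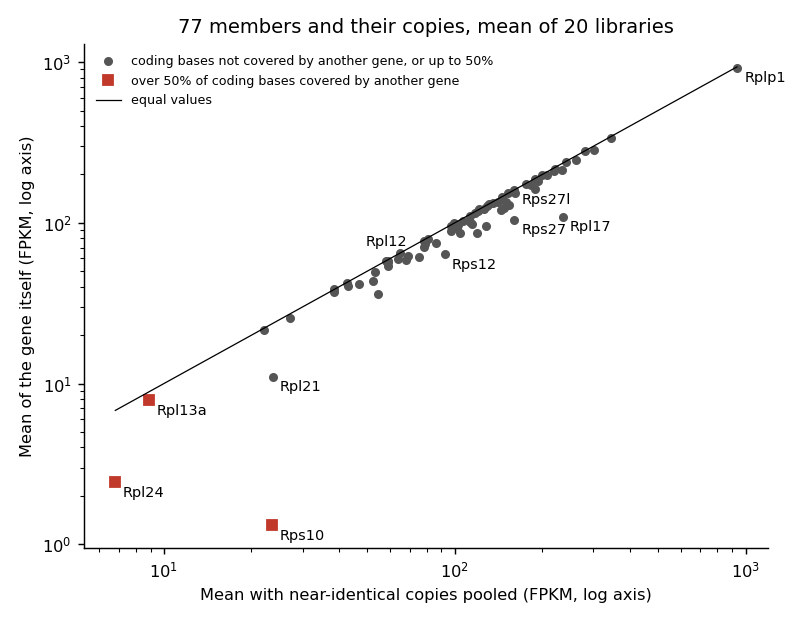
Mean FPKM of each of the 77 tested members over the 20 libraries (y, log axis) against the mean after its near-identical copies were pooled with it (x, log axis); red squares mark the 3 members with over 50% of coding bases covered by another gene. Rps10 lies farthest below the line of equal values, at 1.31 against 23.6.

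Read depth recovered from the steps of the FPKM values was 13.7 to 41.4 M reads per library, with a median of 1131 to 16404 reads per tested member in each library, so counting error was small for all but the lowest members. The recovered totals were 0.478 to 1.94 times those that FPKM without further scaling would imply, and the median tested gene moved by less than 0.1 on the log2 scale in every comparison of 2 groups. The deposited FPKM had thus been scaled between libraries, by a method that is not stated. Summed hepatocyte markers (14 genes) were at 25239 to 83568 FPKM in liver and at 5414 and 1412 in Hep-Org, and summed cholangiocyte markers (6 genes) at 5.39 to 335 in liver and at 4444 and 2729 in Hep-Org. Hep-Org thus lay below all liver libraries in the first list and above all of them in the second. In the cholangiocyte list, Krt19 was at 9.8 and 17.3 FPKM in Hep-Org and Epcam at 6.89 and 5.24. In liver they reached at most 2.99 and 1.36. Most of the summed FPKM in Hep-Org thus lay in other genes of that list. Endothelial markers summed to at most 0.306 FPKM in Hep-Org and to 14 to 154 in liver, and Kupffer cell and macrophage markers to 33 and 826 in the 2 undamaged libraries. In bulk RNA, more members per cell and more cells that express them cannot be told apart, and the part of these cell types in the results was not tested.

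Ribosomal protein mRNAs as a group were higher in the organoids than in undamaged liver. Of the 77 tested members, 44 rose and 0 fell in Hep-Org against undamaged liver (limma, Benjamini-Hochberg adjusted p under 0.05 over all 13162 tested genes and a log2 difference of at least 1), where 10.3% of all tested genes were called higher and 13.2% lower. All 77 members had a positive difference, with a median of 1.5 on the log2(FPKM + 1) scale against -0.03 for all tested genes. In 74 of 77 members both organoid libraries lay above both undamaged ones, which held for 33.9% of all tested genes, and in 39 of 77 they lay above all 18 liver libraries, which held for 14.9%. Calls were spread over the particle: 25 of 43 large-subunit genes, 17 of 31 small-subunit genes and 2 of 3 P stalk genes, with median differences of 1.46, 1.52 and 1.58. These counts rest on 2 libraries a group. Fewer members were called without either Hep-Org library or without undamaged replicate 2, where the library left alone was taken to vary like the other groups. How far this held for all tested genes is not given here. Over the fits that left out 1 library, the members' median difference ranged from 1.32 to 1.62. Rescaling every library to the same FPKM sum, which moves the median of all tested genes by 1.29, called 76 of 77 members higher, with 57.6% of all tested genes called higher and 5.06% lower on that scale.

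**Figure D3:**
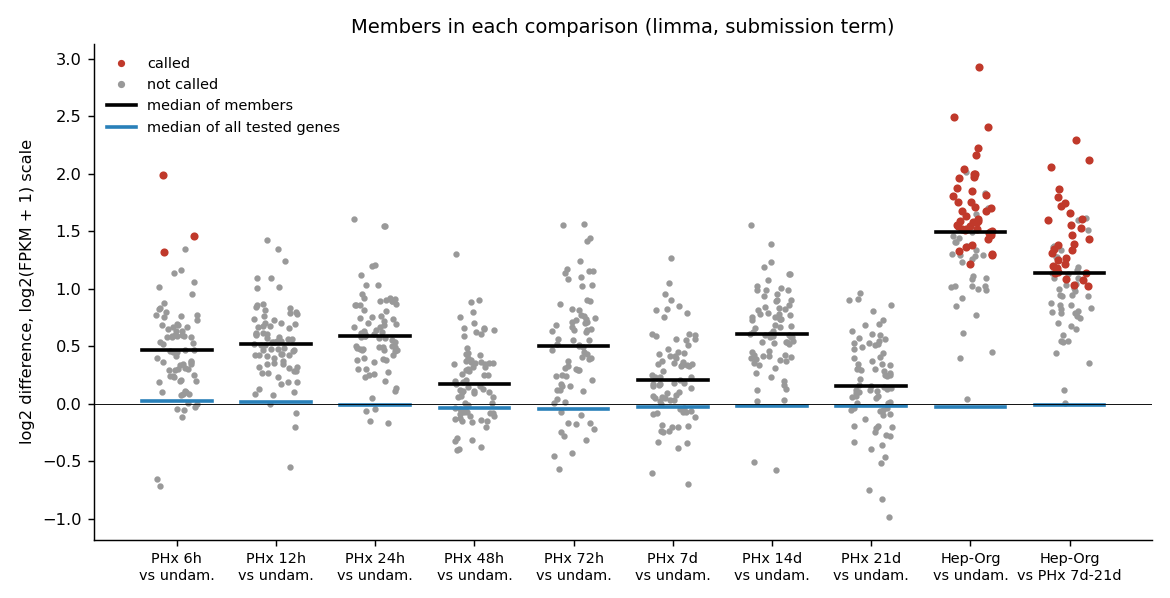
Each point is the log2 difference of 1 of the 77 tested members in 1 comparison (y, log2(FPKM + 1) scale), red where called and grey where not; black bars are the members' medians and blue bars the medians of all tested genes. The members' median is 1.5 in Hep-Org against undamaged liver and between 0.15 and 0.61 at the PHx times, whereas the median of all tested genes stays near 0.

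Rps12, a protein of the small-subunit head, had the largest organoid difference. Rps12 was at 23.8 and 19.7 FPKM in undamaged liver, between 37.9 and 79.9 in the 16 PHx libraries, and at 205 and 145 in Hep-Org. The Hep-Org libraries stand clear of all liver libraries, and the difference from undamaged liver was 2.93 (SE 0.37, adjusted p = 8.76e-05, limma). With its copies pooled it was 2.77 (adjusted p = 1.05e-04). Rps12 was also the only member called when each library was rescaled to its median ribosomal protein gene, at 1.46 (adjusted p = 0.0153), with 2.13% of all tested genes called higher on that scale.
Rpl12, which sits at the base of the P stalk, was at 28.6 FPKM in both undamaged libraries, between 34.8 and 87.5 after PHx and at 174 and 139 in Hep-Org. Its difference in Hep-Org was 2.41 (SE 0.30, adjusted p = 9.07e-05). Rpl17, a protein at the exit of the nascent chain tunnel, was at 35.9 and 37.6 FPKM in undamaged liver and at 344 and 131 in Hep-Org, a wide gap between the organoid libraries. The difference for Rpl17 was 2.50 (SE 0.53, adjusted p = 0.00374), against 1.68 (adjusted p = 0.0109) with its copies pooled. Without Hep-Org replicate 1 it was 1.80 and no longer called.
In the P stalk, Rplp0 rose by 1.998 (SE 0.37, adjusted p = 0.00167) and Rplp2, which was at 34.2 and 49.7 FPKM in undamaged liver and at 134 and 117 in Hep-Org, by 1.58 (SE 0.54, adjusted p = 0.0441). Rplp1 had a difference of 1.29 that missed the threshold (adjusted p = 0.0734), and the Rplp2 call was lost in 12 of 20 fits that left out 1 library, among them those without either undamaged or either organoid library (1.32 to 1.85).
At the other end, Rps10 (difference 0.04, adjusted p = 0.955) and Rpl24 (0.40, adjusted p = 0.703) had the smallest organoid differences. Both are covered by another gene, and Rps10 together with its copies rose by 1.70 (SE 0.52, adjusted p = 0.0254). The summed Rps10 family was at 15.1 and 19.8 FPKM in undamaged liver and at 62.9 and 54.5 in Hep-Org.

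Against the 6 libraries of 7 to 21 d after PHx, when liver mass has largely been restored, 31 of 77 members were called higher and 0 lower in Hep-Org, with 11.2% of all tested genes called higher. The median difference was 1.13 over members and -0.01 over all tested genes. This comparison shares the Hep-Org libraries with the one above, so their lists are not independent: 29 members were called in both, 65.9% of the first list and 93.5% of the second. Fewer members were called without either Hep-Org library, and how far this held for all tested genes is not given here. The members' median difference ranged from 0.94 to 1.30 when 1 library was left out. Rpl13a was at 22 and 26.4 FPKM in Hep-Org and at 3.33 to 6.41 in the 6 late libraries, and its difference of 2.12 (SE 0.21, adjusted p = 1.12e-05, limma) had the smallest p of any member. Its level is uncertain, since another annotated gene covers 97.5% of its coding bases. Rpl7a, a large-subunit protein, had the largest difference, 2.30 (SE 0.79, adjusted p = 0.0372). It was at 101 and 63.3 FPKM in Hep-Org and at 7.07 to 32.1 in the late libraries, and the call was lost when its 29 copies were pooled (1.73, adjusted p = 0.0575). It was also lost without Hep-Org replicate 1 (1.96), Hep-Org replicate 2 (2.63), PHx 7d replicate 2 (2.15), PHx 14d replicate 1 (2.25), PHx 14d replicate 2 (2.32) or PHx 21d replicate 2 (2.16).

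During regeneration few members passed the test against undamaged liver on the deposited scale, while their median difference was above 0 at all 8 times with every library kept. When 1 library was left out, it ranged from -0.096 to 0.53 at 7 d and from -0.00031 to 0.39 at 21 d. At the other times it stayed above 0, with lowest values of 0.062 at 6 h and 0.060 at 12 h. In time order, the median log2 difference over the 77 members was 0.47, 0.52, 0.59, 0.17 and 0.50 in the first 72 h and 0.20, 0.61 and 0.15 from 7 to 21 d, on the log2(FPKM + 1) scale of the deposited values. With libraries brought to 1 FPKM sum the medians were larger, in the same order 0.55, 0.82, 0.89, 0.42 and 1.32, then 0.98, 1.34 and 0.78, with those of all tested genes between 0.05 and 0.43. At 6 h 3 members rose and 0 fell, with 4.62% of all tested genes called higher and 6.29% lower. At the other 7 times 0 members were called in either direction. The share of all tested genes called higher was 0.935% at 12 h, 0.144% at 48 h, 0.365% at 72 h and 0.236% at 7 d, and the share called lower 2.15%, 0.266%, 0.524% and 0.19%, while at 24 h, 14 d and 21 d both were 0%, so few genes of any kind passed. Members at an unadjusted p under 0.05 in the same limma fit numbered 5, 11, 3, 14, 5, 16 and 4 over these 7 times in order, and no other tool was run. The share of all tested genes under that unadjusted p was not counted, so these numbers are not read as a rise of the members. Non-overlap gave a fuller count at 24 h, where both PHx libraries lay above both undamaged ones in 64 of 77 members, against 19% of all tested genes. At 14 d this held for 56 of 77, against 16.4%. The counts were lower elsewhere: 29 of 77 at both 6 and 12 h (24.9% and 21.5% of all tested genes), 35 and 39 at 48 and 72 h (14.9% and 20.1%), and 26 and 28 on days 7 and 21 (14.1% and 16.7%). Both libraries lay below both undamaged ones in 1 of 77 members at 6 h (25% of all tested genes), 9 at 48 h (22.5%), 4 at 21 d (20.3%) and 0 at the other times.

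The 3 members that rose at 6 h were Rpl12, Rpl17 and Rps12. Rpl12 was at 87.5 and 73.6 FPKM at 6 h, above both undamaged libraries (28.6 in each), a difference of 1.46 (SE 0.31, adjusted p = 0.0124, limma). Its lowest PHx libraries were PHx 48h replicate 1 at 34.8 and PHx 7d replicate 2 at 36.4, so all 16 PHx libraries lay above the undamaged ones. Without PHx 6h replicate 1 the difference was 1.31 and not called.
Rpl17 was at 143 and 154 FPKM at 6 h, a difference of 1.99 (SE 0.55, adjusted p = 0.0339), and Rps12 at 63.1 and 48.9, a difference of 1.32 (SE 0.38, adjusted p = 0.0381). Both calls depended on keeping the copies apart. With the copies pooled, Rpl17 had a difference of 0.94 (adjusted p = 0.177) and Rps12 of 1.09 (adjusted p = 0.0661). While Rpl17 went from 35.9 and 37.6 FPKM in undamaged liver to 143 and 154 at 6 h, its pseudogene Rpl17-ps10 went from 159 and 104 FPKM to 40 and 94.6. With copies pooled, the members called at 6 h were Rpl12 (1.41, adjusted p = 0.0151) and Rpl13a, with 4.7% of all tested genes called higher. With copies kept apart, fewer members were called at 6 h without either undamaged library or without PHx 6h replicate 1.
At the low end at 6 h, Rpl23a, a protein at the tunnel exit, was at 39.5 and 42 FPKM against 85.2 and 48.7 in undamaged liver, a difference of -0.65 (adjusted p = 0.412).
Rps12 and Rpl17 also had the largest or the next largest difference at most later times, none of them called. Rps12 lay above undamaged liver in all 16 PHx libraries, with differences after 6 h from 0.97 at 21 d to 1.54 at 24 h, and Rpl17 did so too, with differences from 0.66 at 48 h to 1.61 at 24 h. At 12 h Rpl7a was highest, at 1.43 (adjusted p = 0.453), from libraries at 19.3 and 145 FPKM that lie far apart. The lowest members from 24 h on were Rpl15 and Rpl21 at 24 h (-0.15 and -0.16), Rpl8 and Rpl7a at 48 h (-0.39 and -0.40), Rpl21 and Rpl7a at 72 h (-0.45 and -0.57), Rps10 and Rpl7a at 7 d (-0.60 and -0.70), and Rpl21 and Rps10 at 14 d (-0.51 and -0.58) and 21 d (-0.83 and -0.99). At 12 h Rps27 and Rpl23a were lowest (-0.20 and -0.55). None of these was called (adjusted p of 0.601 or more), so no member was shown to fall after PHx. Rpl15 and Rpl8 are large-subunit proteins, and Rpl8, at 152 and 159 FPKM in undamaged liver, had its highest liver level, 414, in PHx 12h replicate 2.

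Over the 8 PHx times, the F test of limma called 1 member, Rpl13a, where 9.51% of all tested genes were called. Another annotated gene covers 97.5% of the coding bases of Rpl13a, so its level is uncertain. Rpl13a was at 10.7 and 7.72 FPKM at 6 h and at 11.1 and 9.21 at 12 h, whereas all PHx libraries from 24 h on were between 3.33 and 6.79. The early and late libraries do not overlap, and the fitted means spanned 1.11 (adjusted p = 0.0421). Pooled with its copies, of which Gm11478 had a mean of 3.56 FPKM, Rpl13a kept that pattern with a range of 1.502 (adjusted p = 0.00405) and was also called against undamaged liver at 6 h (1.11, adjusted p = 0.0122) and 12 h (1.18, adjusted p = 0.0212). With copies pooled, 9.88% of all tested genes were called over the times and 0.978% called higher at 12 h. The call on Rpl13a alone was lost in 15 of 20 fits that left out 1 library, with fitted ranges of 0.98 to 1.40 over those 20 fits, and under all 4 other scalings tried. Rps10 and Rpl12 followed in the size of F without passing (adjusted p = 0.132 and 0.191).

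**Figure D4:**
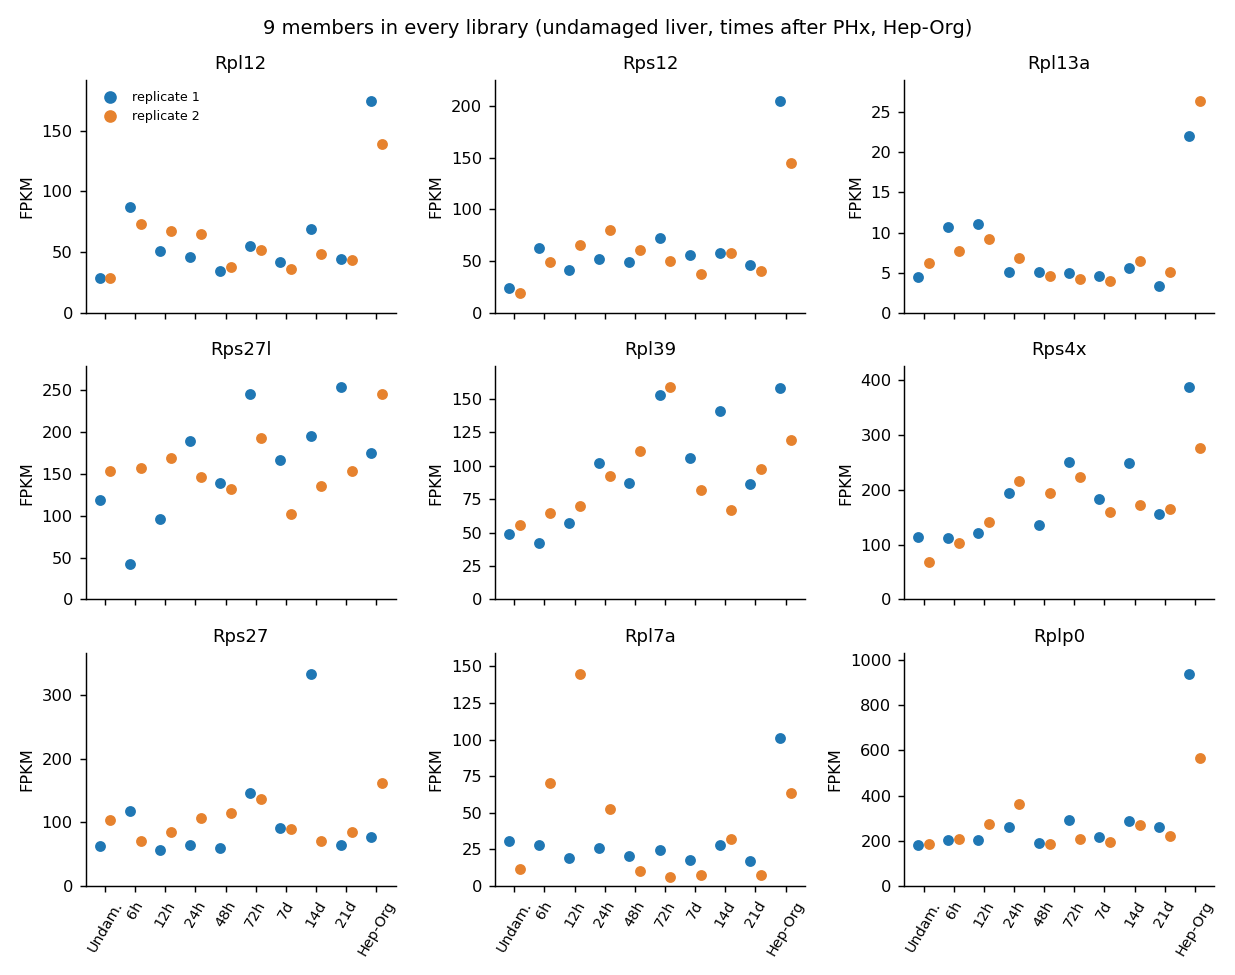
FPKM (y, linear axis from 0) of 9 members in every library, by group (x) and replicate (blue 1, orange 2). Rpl13a is at 7.72 to 11.1 in the 4 libraries of 6 and 12 h and at 3.33 to 6.79 in the later PHx libraries, and Rps27 reaches 334 in PHx 14d replicate 1 while Rps27l is lowest, at 42.6, in PHx 6h replicate 1.

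The call at 72 h depended on the scale. On the deposited scale Rpl39, a small protein of the exit tunnel, was at 153 and 159 FPKM at 72 h against 48.8 and 56 in undamaged liver, a difference of 1.56 that missed the threshold (SE 0.40, adjusted p = 0.0805, limma). The difference for Rps4x, an X-linked small-subunit protein, was 1.42 (adjusted p = 0.0903), and for Rps12 1.44 (adjusted p = 0.0860). With libraries brought to 1 FPKM sum that leaves out mitochondrially encoded genes, 30 of 77 members were called higher at 72 h, with 6.32% of all tested genes called higher, and the median difference over members was 1.48 against 0.51 over all genes. On the recovered reads 12 of 77 were called higher, with 1.41% of all tested genes. Rpl39 led on both scales, at 2.54 (adjusted p = 0.00793) and 2.34 (adjusted p = 0.0147). At 6 h the scale without mitochondrially encoded genes called 10 of 77 members higher, with 8.97% of all tested genes called higher. The reference here is narrow, since the 2 undamaged libraries differ in the members' share of the total, 1.31% and 0.638%.

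Rpl39 and Rps4x are 2 of the 4 X-linked members, and the libraries differ in Xist, the RNA of the inactive X chromosome. The 6 libraries of 48 h, 72 h and 7 d had Xist at 13.6 to 23.7 FPKM and the Y-linked gene Ddx3y at 0, whereas the other 12 liver libraries had Xist at 0.137 or less and Ddx3y at 9.66 to 21.4. Hep-Org replicate 2 also had Xist, at 25.3 FPKM, and replicate 1 did not. Rpl39 had a median of 109 FPKM (81.8 to 159) in the 6 libraries with Xist and of 68.6 (42.3 to 141) in the 12 without. For Rps4x the medians were 189 (137 to 251) and 149 (68.7 to 249), for Rpl36a 46.4 and 41.2, and for Rpl10 197 and 210. All 4 ranges overlap. At 48 h, 72 h and 7 d, sex as read from Xist and Ddx3y cannot be told apart from time after PHx. This holds for every member, X-linked or not, and the part of sex in the values at 72 h was not tested. The 2 Hep-Org replicates also differ in Ddx3y, at 9.9 and 0.00756 FPKM.

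The replicates of a time differed across most of the members at once, which limits every PHx comparison above. At 6 h replicate 2 was higher than replicate 1 in 67 of 77 members, with a median log2 difference of 0.93, and at 12 h in 73 of 77, with a median of 0.96. At 24 and 48 h the gap had the same direction and was smaller, with replicate 2 higher in 61 and 51 of 77 (medians 0.17 and 0.12). From 72 h on the direction was the opposite: replicate 2 was higher in 5 of 77 members at 72 h (median -0.69), in 1 at 7 d (-0.56), in 6 at 14 d (-0.59) and in 15 at 21 d (-0.33). At each of these times the median over all tested genes was within 0.03 of 0. The gaps at 6 h were unequal between members. Rpl35a, a large-subunit protein, was at 13 FPKM in replicate 1 and 67.8 in replicate 2, and Rps28, a small-subunit protein, at 20.5 and 93.9, whereas Rpl10a, another large-subunit protein, was at 200 and 76 and Rpl3, a protein near the peptidyl transferase centre, at 105 and 67.7. At 12 h Rpl35a was again at 15.7 and 62.7 FPKM and Rps28 at 20.6 and 105. Across the 77 members the gaps at 6 h and at 12 h had Pearson r = 0.817 and Spearman rho = 0.842, against 0.472 and 0.353 across all tested genes. This is a correlation across genes that share the same 4 libraries, and genes are not independent replicates. Other values moved with these gaps. The second replicates of 6 and 12 h were the deepest libraries, at 41.1 and 41.4 M reads. Mitochondrially encoded genes held 20.9% and 40.7% of the reads of replicates 1 and 2 at 6 h and 12.6% and 23% at 12 h, and summed erythroid markers (6 genes) were at 7089 and 581 FPKM in replicates 1 and 2 at 6 h and at 6438 and 136 at 12 h. Across members the gap had a Spearman rho of 0.106 with the mRNA's GC content and of -0.22 with its length at 6 h, and of 0.112 and -0.174 at 12 h. The part of depth, submission and blood cells in these gaps was not tested.

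**Figure D5:**
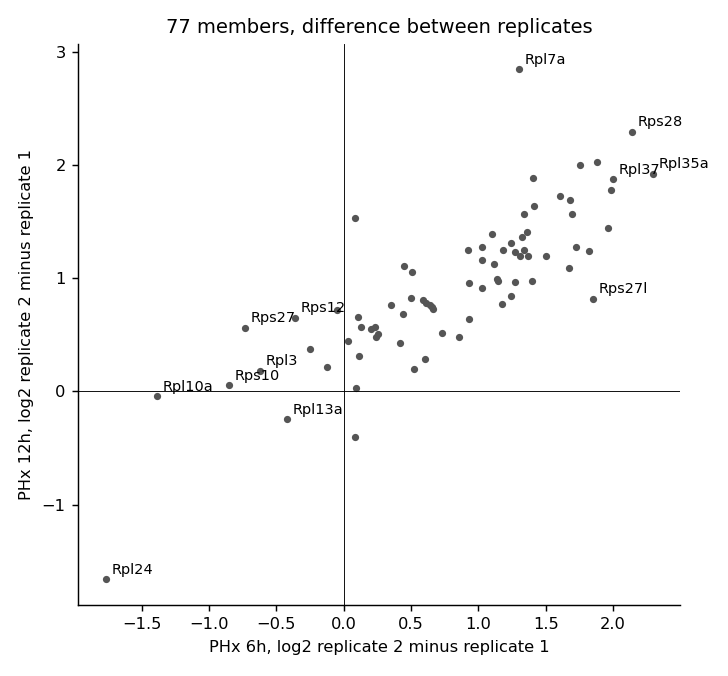
Log2(FPKM + 1) of replicate 2 minus replicate 1 for the 77 tested members, at PHx 6h (x) and PHx 12h (y). Most points lie to the upper right, Rps28 and Rpl35a are above 1.9 on both axes, and Rpl24 is at -1.77 and -1.66.

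Several members departed from the common pattern. On the log2 share of the library total, a member had a median Pearson r of 0.959 with the mean of the other members over the 20 libraries, and 62 of 77 reached 0.9. These correlations share libraries, the library total that divides every member and the Hep-Org gap. Over the 18 liver libraries the median was 0.883. On log2(FPKM + 1) over those 18 it was 0.812, and 16 of 77 reached 0.9. Lowest there were Rpl24 (-0.441), Rps10 (-0.058), Rpl23a (0.103), Rpl10a (0.108), Rpl13a (0.164) and Rps27 (0.335), whereas Rpl7a had 0.704, Rpl21 0.659 and Rps27l 0.474. On the share, the 6 lowest over all 20 were Rpl24 (0.489), Rps10 (0.516), Rps27 (0.760), Rpl7a (0.784), Rpl21 (0.827) and Rps27l (0.829). Rpl24, Rps10 and Rpl21 are among the 4 members that held under 50% of their pooled reads. Rpl7a was at 145 FPKM in PHx 12h replicate 2 and 70 in PHx 6h replicate 2, and at 30.4 and 11.8 in undamaged liver. Rpl21, a large-subunit protein, was at 25.8 and 25.7 FPKM in those same 2 second replicates and at 4.25 to 15.4 in the other 16 liver libraries. With Hep-Org at 18.4 and 23.7, its organoid difference of 0.996 was not called (adjusted p = 0.338).

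Rps27 has an identical coding copy with its own row in the table. Rps27, a small-subunit protein with a zinc finger, ranged from 56.7 to 334 FPKM, and the gene Rps27rt on chromosome 9, all of whose 252 coding bases are identical to those of Rps27, from 44.2 to 344. Reads of the shared bases cannot be assigned to either gene, and in several libraries 1 row was high where the other was low. PHx 14d replicate 1 had Rps27 at 334 and Rps27rt at 44.2 FPKM, PHx 21d replicate 1 had them at 64.7 and 307, and the organoid libraries at 77.1 and 344 in replicate 1 and at 161 and 47.6 in replicate 2. With all copies pooled on the read scale, Rps27 was at 96.7 and 124 FPKM in undamaged liver and 200 and 178 in Hep-Org. The organoid difference was 0.45 for Rps27 alone (adjusted p = 0.639) and 0.78 when pooled (adjusted p = 0.232).

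Rps27l, the paralogue known as a target of p53, differs from Rps27 at 60 of 252 coding bases, and no near-identical copy of it was found. Of these differences 24 lie in the first 90 coding bases, which are shown with the differing bases in capitals.
Rps27: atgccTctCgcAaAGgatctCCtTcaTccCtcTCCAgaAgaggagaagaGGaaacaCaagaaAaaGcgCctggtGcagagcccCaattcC
Rps27l: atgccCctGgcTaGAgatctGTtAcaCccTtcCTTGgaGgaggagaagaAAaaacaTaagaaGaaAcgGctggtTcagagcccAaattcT
Rps27l was at 119 and 154 FPKM in undamaged liver, at 42.6 and 157 at 6 h, had a liver maximum of 253 in PHx 21d replicate 1, and was at 175 and 245 in Hep-Org. Its organoid difference was 0.61 (SE 0.57, adjusted p = 0.444). Its difference at 6 h was -0.71 (adjusted p = 0.452), which without PHx 6h replicate 2 became -1.64 (adjusted p = 0.0454) and without PHx 6h replicate 1 0.48. Of 15 other p53 target genes, 13 rose and 1 fell in Hep-Org against undamaged liver, with a median of 2.30, where 10.3% of all tested genes were called higher and 13.2% lower. At 1 FPKM sum 14 were higher and 0 lower, with a median of 4.05, where 57.6% of all tested genes were called higher and 5.06% lower. Among those that rose were Phlda3 (5.46, SE 0.48), an inhibitor of Akt signalling, Ccng1, which encodes cyclin G (2.98, SE 0.25), and Eda2r, a receptor (2.95, SE 0.22).

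Of the other paralogue pairs, Rpl3l, Rpl10l and Rpl39l did not reach the filter and their partners did. Rpl3 was at 61.2 and 51.8 FPKM in undamaged liver and at 232 and 159 in Hep-Org, and rose by 1.75 (SE 0.33, adjusted p = 0.00187, limma), while Rpl3l stayed under 0.2 FPKM. Rpl39 rose in Hep-Org by 1.38 (SE 0.39, adjusted p = 0.0177), from 48.8 and 56 to 158 and 120 FPKM, against 153 and 159 at 72 h. Rps4x rose by 1.88 (SE 0.37, adjusted p = 0.00234), and Rpl10 had a difference of 0.99 that missed the threshold (adjusted p = 0.0840). Rps4l, annotated as a transcribed pseudogene and so no member, was at 5.9 to 37.9 FPKM.

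Ribosomal proteins that the symbol rule leaves out gave 2 calls in 7 in Hep-Org against undamaged liver, with 10.3% of all tested genes called higher. At 1 FPKM sum they gave 6 in 7, with 57.6% of all tested genes called higher. Rps3a1, the mouse gene for a small-subunit protein, rose by 1.55 (SE 0.43, adjusted p = 0.0169), from 269 and 195 FPKM to 766 and 588, and Rpl22l1, a paralogue of Rpl22, by 1.62 (SE 0.47, adjusted p = 0.0217), from 9.27 and 11.3 to 32.3 and 34.9. Fau, a fusion of a ubiquitin-like and a ribosomal protein, had a difference of 0.96 (adjusted p = 0.265).

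Genes that build ribosomes were called at 6 h and in Hep-Org. Of 28 genes of ribosome biogenesis and RNA polymerase I, 9 rose and 0 fell at 6 h, against 3 of 77 members, with 4.62% of all tested genes called higher. Among them were Nop2, an rRNA methyltransferase (1.89, SE 0.36, adjusted p = 0.00759), Mybbp1a, a nucleolar protein (1.56, SE 0.28, adjusted p = 0.00652) and Nop58, a core protein of box C/D particles (1.39, SE 0.26, adjusted p = 0.00689). Over the PHx times 9 of 28 were called, against 9.51% of all tested genes. In Hep-Org against undamaged liver 11 of 28 rose, with 10.3% of all tested genes called higher, led by Dkc1, the pseudouridine synthase (1.41, SE 0.20, adjusted p = 2.71e-04). At 1 FPKM sum, where 57.6% of all tested genes were called higher, all 28 were. Myc, the transcription factor that drives many of these genes, rose at 6 h by 1.93 (SE 0.27, adjusted p = 0.00196) and in Hep-Org by 2.66 (SE 0.26). The difference between the 2 lists at 6 h was not tested, and with libraries brought to 1 FPKM sum 0 of the 28 and 0 of the 77 were called.
Of 28 translation factors and other genes with TOP mRNAs, 13 rose and 0 fell in Hep-Org against undamaged liver, where 10.3% of all tested genes were called higher, with a median of 1.1. At 1 FPKM sum 26 were higher, with a median of 2.97, where 57.6% of all tested genes were called higher. Npm1, a nucleolar chaperone, rose by 2.80 (SE 0.37), Rack1, a scaffold on the small subunit, by 1.86 (SE 0.33) and Hnrnpa1, an RNA-binding protein, by 1.63 (SE 0.28). At 6 h 2 of the 28 rose, where 4.62% of all tested genes were called higher. They were the snoRNA host genes Snhg1 (2.05, SE 0.49, adjusted p = 0.0203) and Gas5 (1.37, SE 0.39, adjusted p = 0.0382).
The mitochondrial ribosome, which translates the mRNAs of the mitochondrial genome, had few calls on the deposited scale. Of 77 tested mitochondrial ribosomal protein genes 2 rose in Hep-Org, Mrps6 (1.26, SE 0.37) and Mrpl45 (1.01, SE 0.24), with 10.3% of all tested genes called higher. The list had a median of -0.27, a direction that turned when libraries were brought to 1 FPKM sum. Its median was then 1.44 with 63 higher, where 57.6% of all tested genes were called higher. Of 13 mitochondrially encoded mRNAs, 0 rose and 7 fell in Hep-Org, with a median of -3.28, where 13.2% of all tested genes were called lower. At 1 FPKM sum 4 were lower, with a median of -1.37, where 5.06% of all tested genes were called lower. One of the 7 was mt-Nd6 (-3.15, SE 0.72, adjusted p = 0.00592).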

How the data were processed

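Bulk RNA-seq was compared over 20 mouse libraries. The authors deposited 1 table of FPKM per gene. Alignment was to mm10 with HISAT2 2.0.5, per the submitters' processing notes, and the tools for counting and FPKM were not stated there. The members and gene lists were chosen with earlier results of these data known. Gene names and exon lengths came from GENCODE, release M21. Limma 3.58.1 in R 4.3.3 (trend and robust) was fitted to log2(FPKM + 1) of 13162 genes with at least 1 FPKM in at least 2 libraries. All groups shared 1 fit with a term for the second submission, and p-values were adjusted by Benjamini and Hochberg. A log2 difference understates the change of low genes. Depth came from the step between low FPKM values, of which 97.9% to 98.8% were whole reads (tolerance 0.05 read, to 20 reads). Copies were found with BLASTN 2.17.0. The fit was tested on simulated data. Named genes were the members with the highest and lowest shares, the extremes of each comparison, those least like the rest, paralogues and the P stalk, and list genes with the largest statistics. Rps12 at 6 h, Rpl36a, Rpl35a, Rps28, Rpl10a and Rpl3 among the replicate gaps, and Rps4x and Rps12 at 72 h were added after their values were seen. Alternatives, some chosen after seeing the data, changed the scale, pseudocount, filter, submission term or pooling of copies, or left out libraries.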

Additional observations from a re-analysis of the deposited data

How the results depend on the processing

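The cause of the changes given here was not tested. Among single named members, calls lost and gained numbered 4 and 6 with libraries at 1 FPKM sum, 1 and 7 without mitochondrially encoded genes, 2 and 7 on recovered reads, 11 and 0 on the median member, 3 and 1 with copies pooled, 5 and 0 with no filter, 0 and 1 without the block and 2 and 2 without the second replicates of 6 and 12 h. With a pseudocount of 0.1 no call on a named member changed. The median of all genes moved by 1.29 in Hep-Org against undamaged liver with libraries at 1 FPKM sum, and the members called were 76 at 1 sum, 76 at 1 sum without mitochondrially encoded genes, 76 on recovered reads and 1 at 1 level of the median member. On these scales in turn 57.6%, 52.6%, 46.7% and 2.13% of all tested genes were called higher. The scale of the median member takes out any shift that the members share. Its counts, lost calls and changes of sign therefore cannot speak to such a shift. Against 7 to 21 d the members called were 75, 75, 75 and 0 on those scales, and 20 with no filter on low values. All tested genes called higher in that comparison were 46.2%, 41.7%, 34.8% and 2.38% on the same scales. The 6 h count was 0 at 1 sum (0.994% of all tested genes called higher), 10 without mitochondrially encoded genes (8.97%), 1 with no filter and 0 on the median member (1.36%). The 72 h count was 1 at 1 sum (0.528% of all tested genes called higher), 30 without mitochondrially encoded genes (6.32%) and 12 on recovered reads (1.41%). The time course count was 0 on all 4 scales and with no filter. Counts with no filter are given without the share of all tested genes and are not read as a result about the members. Pooling copies gave 1 call at 12 h.

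The PHx replicate number marks the submission, and nothing pairs single libraries beyond that. Deviations of same-numbered libraries from their group means correlated at -0.381 to 0.472 over 28 pairs of times (median -0.115, 4 over 0.1). The replicate block here is the submission term, and without the block the counts were 2 at 12 h, 4 at 72 h, 46 in Hep-Org against undamaged liver and 38 against 7 to 21 d. The share of all tested genes is not given beside these counts, so they are not read as a result about the members.

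Leaving out 1 library at a time, where a lone library is assumed to vary like the other groups, gave 0 to 2 calls in the time course, 1 to 4 at 6 h, 12 to 49 in Hep-Org against undamaged liver and 4 to 35 against 7 to 21 d. Differences that changed sign in those fits ranged as follows: Rps27l at 6 h from -1.64 to 0.48, Rps27 at 12 h from -0.56 to 0.20, Rpl15 at 24 h from -0.37 to 0.13, Rpl21 at 24 h from -0.64 to 0.21 and at 72 h from -1.25 to 0.17, Rpl7a at 48 h from -1.05 to 0.25 and at 72 h from -1.74 to 0.35, and Rps10 at 7 d from -1.27 to 0.058 and at 14 d from -1.24 to 0.083. In Hep-Org against undamaged liver the ranges were -0.20 to 0.99 for Rpl24, -0.62 to 0.70 for Rps10 and -0.075 to 0.98 for Rps27, and against 7 to 21 d -0.41 to 0.69 for Rps27 and -0.59 to 0.60 for Rpl24.

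The other changes of sign were in differences that were not called on the deposited scale, apart from Rpl39 in Hep-Org. At 1 sum, 1 sum without mitochondrially encoded genes and recovered reads in turn, Rps27 at 12 h was 0.11, 0.30 and 0.21, Rpl15 at 24 h 0.16, 0.32 and 0.24, Rpl21 at 24 h 0.11, 0.26 and 0.18, Rpl21 at 72 h 0.28, 0.42 and 0.24, Rpl7a at 72 h 0.19, 0.34 and 0.16, and Rpl21 at 14 d 0.14, 0.0057 and 0.054. At the first 2 of these Rpl7a at 7 d was 0.031 and 0.046, and at the second Rpl8 at 48 h was 0.11 and Rpl7a 0.058. With copies pooled, Rps27 at 12 h was 0.22, Rpl21 0.33 at 24 h, 0.13 at 72 h and 0.19 at 14 d, and Rps10 0.54 at 14 d and 0.089 at 21 d. Without the second replicates of 6 and 12 h, Rpl15 and Rpl21 at 24 h were 0.028 and 0.16. On the median member, Hep-Org against undamaged liver gave -0.52 for Rpl24, -0.78 for Rps10, -0.20 for Rplp1, -1.03 for Rps27, -0.88 for Rps27l, -0.10 for Rpl39 and -0.51 for Rpl10, and against 7 to 21 d -1.09 for Rps27 and -0.74 for Rpl24, which was -0.071 with a pseudocount of 0.1. Depth limits the lowest members, Rps10 and Rpl24, at means of 1.31 and 2.43 FPKM.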
